A study of Mus musculus with 8 samples.

Results

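The genes described here encode the proteins of the mitochondrial ribosome. They were taken as every protein-coding gene whose mouse symbol starts with Mrpl (large subunit) or Mrps (small subunit) followed by a digit, which gave 78 of the 55414 genes in the table, 49 of the large and 29 of the small subunit. The rule itself uses names and gene type alone, and 5 pseudogenes with such a symbol were left out. RNA of whole mouse testis was sequenced from 4 control samples and 4 samples labelled valine, the branched-chain amino acid whose effect on the testis was the question. The labels give no strain, age, dose, route or duration for either group, and name no genotype, transgene or other agent shared by them. Columns of the table are headed with an abbreviation, VA, that the labels do not spell out; they were taken as the valine samples because the other 4 headings name the control, and every valine value rests on this. The labels also do not say whether the replicates were separate animals, so p-values measure the spread between these samples, part of which may be technical.

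Mitochondria keep their own ribosome, which translates the few messenger RNAs of the mitochondrial genome, all of them for inner-membrane subunits of the respiratory chain and ATP synthase. Its 2 ribosomal RNAs come from the mitochondrial genome, whereas its proteins are encoded in the nucleus, made in the cytosol and imported. Some of these proteins belong to families shared with bacterial ribosomes and others are found only in mitochondria; in the testis, germ cells remodel their mitochondria as they pass from spermatogonia to sperm.

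Levels are FPKM, fragments counted per kilobase of exon and scaled to the mapped fragments of the library, so they can be compared between genes as levels per length. A gene was tested where its mean over the 8 samples was at least 1 FPKM, and a change is the difference of log2(FPKM + 1), valine minus control, which slightly understates the change of low genes. It was called where the Benjamini-Hochberg adjusted p of limma, a linear model fitted over all 22077 tested genes, was below 0.05. Multiplied by exon length, the values stepped in whole fragments, which put the depth at 6640000 to 7670000 fragments per sample (to 3 digits). The 77 tested members held a mean of 69 to 2093 fragments per sample (median 340). Counting alone then gives a spread of 0.078 on the log2 scale for the median member, against a measured spread between samples of one group of 0.121.

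With valine, 11 of the 77 tested members rose and none fell. Over all tested genes the same call was made for 4.32% as higher and 4.41% as lower. At an unadjusted p below 0.05 limma put 24 members higher and 0 lower, beside 3039 higher and 2612 lower of all 22077 tested genes. A count model (voom on recovered fragments) put 24 members higher and 1 lower at that p, and called 11 higher and 0 lower. Of the 20944 genes voom could use, it put 2725 higher and 2740 lower at that p. The change was above 0 for 66 of the 77 members, with a median of 0.14 and a range from -0.21 to 0.48, whereas the median over all tested genes was 0.02. In 18 members every valine sample lay above every control sample and in 0 members below, against 8.99% and 9.39% of all tested genes. The number of calls moved when 1 sample was left out: it was 3, 4, 5 and 6 without control replicates 1 to 4 and 3, 4, 4 and 1 without valine replicates 1 to 4. Scaling every sample to the same total FPKM, which lowered the median of all genes from 0.02 to -0.08, left 2 calls (Mrpl20 and Mrpl47), 44 members above 0 and a median of 0.03. In whole tissue, more cells of a type and more RNA per cell cannot be told apart; markers of several cell types moved between the groups, with values given at the end.

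**Figure D1:**
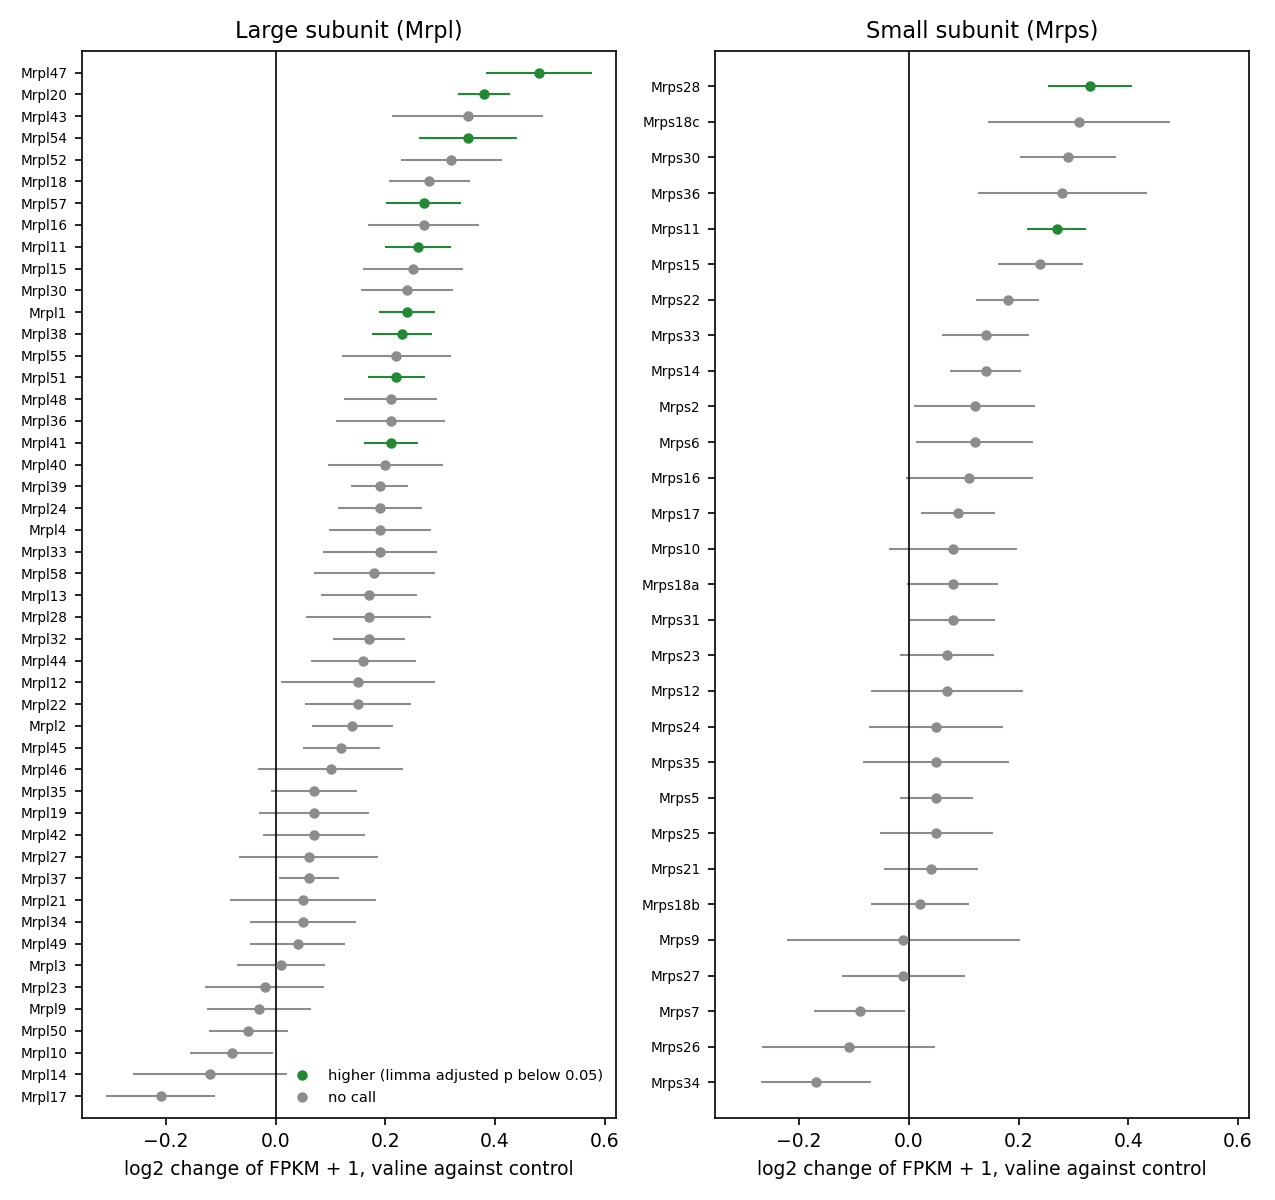
Log2 change of FPKM + 1, valine against control, for the 48 tested large subunit genes (left) and the 29 small subunit genes (right); points are limma estimates from 4 samples a group, bars are 1 standard error, and green marks the 11 genes past an adjusted p of 0.05. Most points lie to the right of 0, and the 9 large and 2 small subunit genes in green lie between 0.21 and 0.48.

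In a whole-sample sum, the 78 members took 0.449%, 0.457%, 0.451% and 0.475% of all fragments in control replicates 1 to 4. In valine replicates 1 to 4 they took 0.526%, 0.496%, 0.511% and 0.541%. The groups did not overlap on this scale, with means of 0.458% ± 0.0116 and 0.518% ± 0.0193 (SD, n = 4). As a share of the summed FPKM of all genes the same members held 0.211% to 0.219% in control and 0.218% to 0.232% in valine samples, and here valine replicate 2 lay below control replicate 4. The summed FPKM of all genes was itself higher in each valine sample (1027662 to 1070524) than in each control sample (944659 to 974626).

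Mrpl20, a conserved large subunit protein of the bacterial L20 family, had the smallest p of the members. Its FPKM was 69.5, 73.3, 68.4 and 67.2 in control replicates 1 to 4 and 92.9, 90.5, 86.9 and 93.0 in valine replicates 1 to 4. The lowest valine sample stood above the highest control sample, and the SD within the groups was 2.67 and 2.85 FPKM. The change was 0.38 ± 0.047 (SE), or 1.30-fold on the FPKM + 1 scale, with a limma adjusted p of 0.00453. It was called in all 17 alternative settings, those leaving out 1 sample included.

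Mrpl47, which belongs to the L29 family, showed the largest change of any member. Its FPKM was 27.4, 25.5, 22.5 and 26.4 in the control samples and 30.8, 34.8, 39.6 and 39.3 in the valine samples. The valine samples were spread more widely than the controls, and the groups did not overlap. Mrpl47 rose by 0.48 ± 0.097, with a limma adjusted p of 0.0209, and was called in 13 of 17 settings. Of its exon bases 24.2% also lie in exons of other genes, so fragments of a neighbour could be counted with it.

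Mrpl54, a protein found only in mitochondrial ribosomes, had the highest level of all members. It measured 137, 121, 144 and 145 FPKM in the control samples and 194, 164, 154 and 187 FPKM in the valine samples. All valine samples were above all controls, but the step from the highest control to the lowest valine sample was small beside the spread within the valine group. Its change was 0.35 ± 0.089 with a limma adjusted p of 0.0466, near the threshold, and it was called in 4 of 17 settings.

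The other large subunit genes that rose changed by 0.21 to 0.27. Mrpl1, of the L1 family that forms a mobile stalk beside the tRNA exit site, averaged 33.9 ± 1.67 FPKM in control and 40.0 ± 0.290 FPKM in valine samples (SD, n = 4). Mrpl11, of the L11 family at the base of the other stalk, where translation factors bind, averaged 32.0 ± 1.76 and 38.5 ± 1.78 FPKM. Mrpl57 averaged 28.5 ± 2.58 and 34.5 ± 0.555 FPKM. The remaining 3 were among the 11 most abundant members: Mrpl38 of the central protuberance averaged 65.1 ± 3.84 and 76.2 ± 2.51 FPKM. Mrpl41 averaged 67.5 ± 3.13 and 78.1 ± 2.03 FPKM, and Mrpl51 averaged 54.2 ± 1.97 and 63.5 ± 3.07 FPKM. In none of these 6 genes did the groups overlap, and their limma adjusted p-values lay between 0.0269 (Mrpl1) and 0.0461 (Mrpl57). Each was called in only 3 to 6 of the 17 settings.

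In the small subunit Mrps11 and Mrps28 rose. Mrps11, of the S11 family on the platform of the small subunit, measured 33.1, 34.1, 32.7 and 30.2 FPKM in the control samples and 39.9, 39.1, 38.0 and 40.3 FPKM in the valine samples. Mrps28 measured 44.4, 53.9, 49.4 and 48.1 FPKM in the control samples and 56.7, 67.4, 63.4 and 59.5 FPKM in the valine samples. The groups stood apart in both genes, by more for Mrps11 than for Mrps28 relative to the spread. The changes were 0.27 ± 0.054 for Mrps11 (limma adjusted p = 0.0212, called in 11 of 17 settings) and 0.33 ± 0.076 for Mrps28 (limma adjusted p = 0.0337, called in 6).

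**Figure D2:**
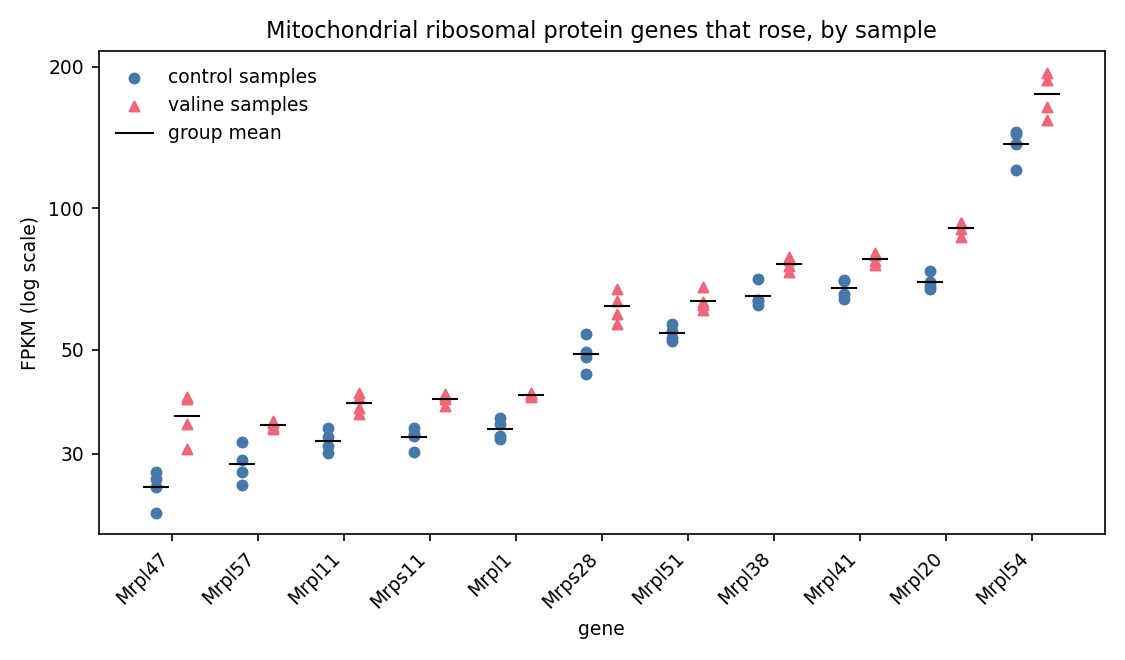
FPKM (log axis) of the 11 members that rose, ordered by control mean; circles are the 4 control samples, triangles the 4 valine samples, and lines the group means. In each gene all triangles lie above all circles, with the widest spread of triangles in Mrpl47 and Mrpl54.

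The other 66 tested members passed no threshold, and the change was above 0 in 55 of them. Mrpl43 had the largest of these, 0.35 ± 0.138, with 8.32, 7.49, 6.53 and 9.20 FPKM in control and 11.3, 8.02, 10.1 and 11.9 FPKM in valine samples; valine replicate 2 lay within the control range. Mrpl52 of the central protuberance (0.32, limma adjusted p = 0.0667) and Mrps30 (0.29, limma adjusted p = 0.0794) did not overlap between the groups. Mrps18c changed by 0.31 ± 0.166, with control samples from 11.4 to 18.1 and valine samples from 15.1 to 23.5 FPKM. With valine replicate 2 left out, Mrpl12 and Mrps15 passed the threshold, and they are described with that sample below.

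Of the 11 members with a change below 0, none had an unadjusted p below 0.05 by limma. The lowest was Mrpl17, of the L17 family, at -0.21 ± 0.099, with 5.55, 5.63, 5.003 and 5.78 FPKM in control and 4.53, 4.59, 4.03 and 5.43 FPKM in valine samples; only valine replicate 4 reached the control range. Next came Mrps34 at -0.17, Mrpl14 at -0.12 and Mrps26 at -0.11, whose groups overlapped. Of the exon bases of Mrps34, 77.8% lie in exons of other genes. Mrpl14 had the fewest fragments of the tested members, a mean of 69 per sample. Mrps9, named after its values were seen, had the widest spread within groups, 0.345 on the log2 scale where counting alone gives 0.063. It measured 9.29, 15.6, 9.74 and 15.8 FPKM in control and 10.3, 10.6, 16.7 and 11.8 FPKM in valine samples, so that 2 control samples and 1 valine sample stood above 15 FPKM and the other 5 below 12 FPKM.

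Mrpl53 was listed at 0 FPKM in every sample and was not tested. Of its exon bases 88.0% lie in exons of other genes (Ccdc142os and Gm42688), and a listed 0 can come from how such bases were assigned; whether it did was not tested. Fragments of Mrpl23, Mrpl48 and Mrps36 could be shared with pseudogenes of the same name. The largest of these, Mrpl48-ps, averaged 13.8 ± 1.14 FPKM in control and 15.5 ± 3.48 FPKM in valine samples, above Mrpl48 itself at 6.63 and 7.81 FPKM, so the values of these 3 members are uncertain.

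The large and the small subunit were then compared. In the large subunit 9 of 48 tested genes rose (18.75%, beside 4.32% of all tested genes), 42 had a change above 0 and the median was 0.18. In the small subunit 2 of 29 rose (6.9%, nearer to the share of all genes), 24 were above 0 and the median was 0.08. The small subunit median became -0.03 when totals were made equal, where the large subunit kept 0.07 and the median of all tested genes was -0.08. Within a sample, the mean log2(FPKM + 1) of large subunit genes exceeded that of small subunit genes by 0.533, 0.485, 0.481 and 0.595 in control and by 0.546, 0.614, 0.547 and 0.610 in valine replicates 1 to 4. These differences averaged 0.524 ± 0.0532 and 0.579 ± 0.0379 (SD, n = 4) and overlapped, through control replicate 4. After a smooth trend of each sample's values on exon length was removed, the medians of both subunits were 0.13 and 0.12, so the gap between them went from 0.10 to 0.01. In known structures Mrps30 and Mrps18a sit in the large subunit and Mrps36 is a part of the 2-oxoglutarate dehydrogenase complex, and with these moved or left out the medians stayed 0.18 (50 genes) and 0.08 (26 genes).

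**Figure D3:**
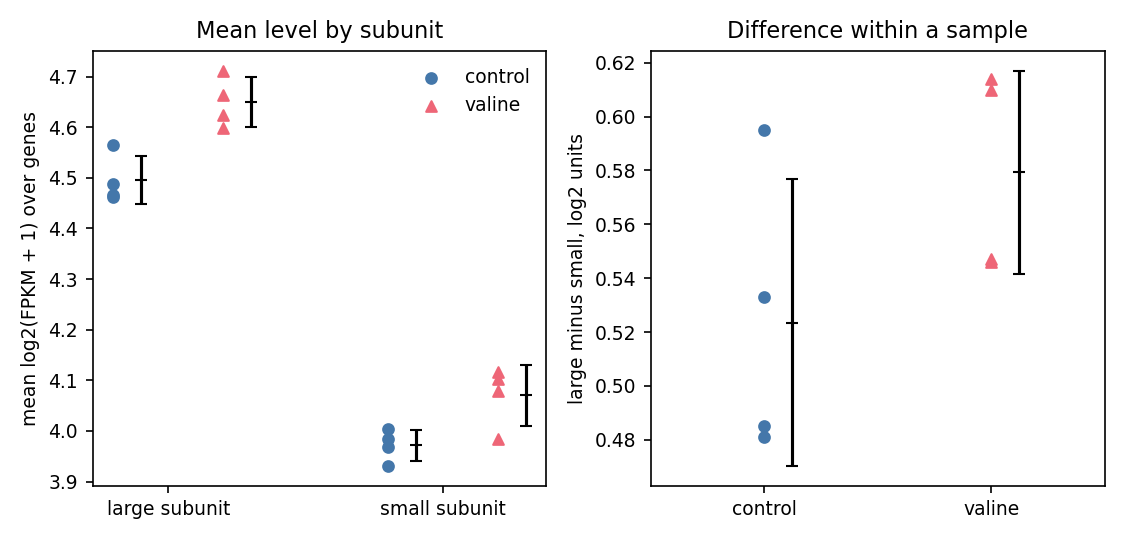
Left, mean log2(FPKM + 1) over the large and the small subunit genes in each sample; right, the difference of both means within each sample. Points are samples (4 a group) and bars are mean ± SD: large subunit means of the groups do not overlap, small subunit means meet at valine replicate 2, and the differences range from 0.481 to 0.595 in control and from 0.546 to 0.614 in valine samples.

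Within the large subunit, 4 of 30 proteins with a bacterial counterpart rose (13.33%, median 0.17), as did 5 of 20 listed as found only in mitochondria (25.0%, median 0.20). The list of 20 holds Mrps18a, of the bacterial S18 family, so its size depends on that choice. Within the small subunit the same 2 classes had 2 of 17 (11.76%, median 0.09) and 0 of 9 (median 0.05), beside 4.32% of all tested genes. Of the 9, limma and voom each put 1 higher at an unadjusted p below 0.05, and voom called 0. With equal totals both small subunit medians were below 0 (-0.01 and -0.04), where the median of all tested genes was -0.08. No difference between these lists was tested. For the central protuberance, the knob of the large subunit that touches bound tRNA, 8 proteins were listed, and the list may not be complete. All 8 had a change above 0 (6 with equal totals), the median was 0.22 and Mrpl38 alone passed by limma. The others ranged from 0.06 for Mrpl27 to 0.32 for Mrpl52. Of 6 listed proteins of the tunnel through which the new chain leaves, 0 passed by limma or voom and the median was 0.16. At an unadjusted p below 0.05 limma and voom each put 2 of them higher. The list leaves out Mrpl47 (0.48) and Mrpl17 (-0.21), whose bacterial families also sit at the tunnel's end, so its count depends on that choice. It holds Mrpl39, the second most abundant member, at 107 ± 2.81 FPKM in control and 123 ± 7.30 FPKM in valine samples (0.19, limma adjusted p = 0.0547). It further holds Mrpl45, which tethers the ribosome to the inner membrane, at 17.0 ± 1.11 and 18.6 ± 1.13 FPKM (0.12).

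Of the 3 proteins of the factor-binding stalk, Mrpl11 rose as given above. Mrpl10, which carries the stalk, measured 56.3, 56.7, 56.4 and 57.2 FPKM in control and 53.9, 47.3, 52.9 and 61.7 FPKM in valine samples (-0.08). Mrpl12, which binds to Mrpl10 as the stalk's arms, measured 70.7, 70.3, 70.2 and 74.2 FPKM in control and 88.6, 56.5, 87.5 and 89.4 FPKM in valine samples. Control samples of both genes lay within a few FPKM of each other, and both were lowest of all 8 samples in valine replicate 2. With that sample Mrpl12 changed by 0.15 ± 0.140; without it the change was 0.31 with a limma adjusted p of 0.017. Mrps15, of the S15 family, was likewise uncalled with all samples (0.24, adjusted p = 0.0897) and called without valine replicate 2.

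The 3 paralogs of the bacterial S18 family did not move alike in value. Mrps18c, the one in the usual S18 position, changed by 0.31 as given above. Mrps18b averaged 26.5 ± 3.29 FPKM in control and 26.8 ± 1.29 FPKM in valine samples (0.02), and Mrps18a 17.4 ± 1.45 and 18.4 ± 1.46 FPKM (0.08); both were below 0 with equal totals, at -0.10 and -0.03. None passed the test, and differences between paralogs were not tested. Mrps12, of the S12 family at the decoding centre, ranged from 25.8 to 42.0 FPKM in control and from 32.1 to 38.9 FPKM in valine samples (0.07, and -0.05 with equal totals). Mrps36 reached 85.9 FPKM in valine replicate 4 against 50.03 to 64.9 FPKM in the other 3 valine samples and 45.4 to 58.9 FPKM in control (0.28 ± 0.154). Mrpl58, a release factor relative that frees stalled ribosomes, averaged 4.99 ± 0.659 and 5.77 ± 0.532 FPKM (0.18).

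Levels of the tested members ran from 2.32 to 156 FPKM, with a median of 17.9 FPKM (23.5 in the large and 16.4 in the small subunit). The highest large subunit genes were Mrpl54 (156), Mrpl39 (115), Mrpl55 (80.9) and Mrpl20 (80.2), and the lowest were Mrpl23 (2.32), Mrpl19 (3.31), Mrpl33 (3.65) and Mrpl17 (5.07). Mrpl55 and Mrpl20 in this order do not differ beyond their spread. The highest small subunit genes were Mrps36 (58.7), Mrps28 (55.4), Mrps15 (46.5) and Mrps11 (35.9), and the lowest were Mrps35 (2.37), Mrps25 (4.35), Mrps10 (4.90) and Mrps34 (7.05).

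This order rests in part on the length by which fragments were divided. The exon length, the union of all annotated exons of a gene, was 607 to 8631 bp with a median of 2533 bp, whereas the principal transcript of the same genes had a median of 1316 bp. In 20 of 77 members the union was at least 2 times as long as the principal transcript. Across the 77 members Spearman's rho between exon length and FPKM was -0.57 (-0.50 in the large, -0.70 in the small subunit), a description across genes that share libraries and in which length enters both measures. With fragments divided by the principal transcript instead, rho between the length and the level was -0.32, and the levels on both scales correlated at 0.82.

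A few members changed place widely. Mrpl33, whose union of exons is 7326 bp and whose principal transcript is 478 bp, ranked 74 by FPKM and 22 per principal transcript (55.9 on that scale). Mrps10 (8079 and 1018 bp) went from rank 72 to 35 and Mrpl13 (7936 and 1223 bp, named after its values were seen) from 62 to 21. Mrpl54 (825 and 604 bp) ranked first and Mrpl20 (1664 and 764 bp) ranked 4 and 2, so they were near the top on either scale. Other low members with long unions stayed at the bottom, with Mrpl19, Mrps25, Mrps35 and Mrpl17 at ranks 77, 76, 75 and 74 per principal transcript. Their mean fragments per sample were 130, 206, 146 and 277, beside 192 for Mrpl33 and 284 for Mrps10.

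**Figure D4:**
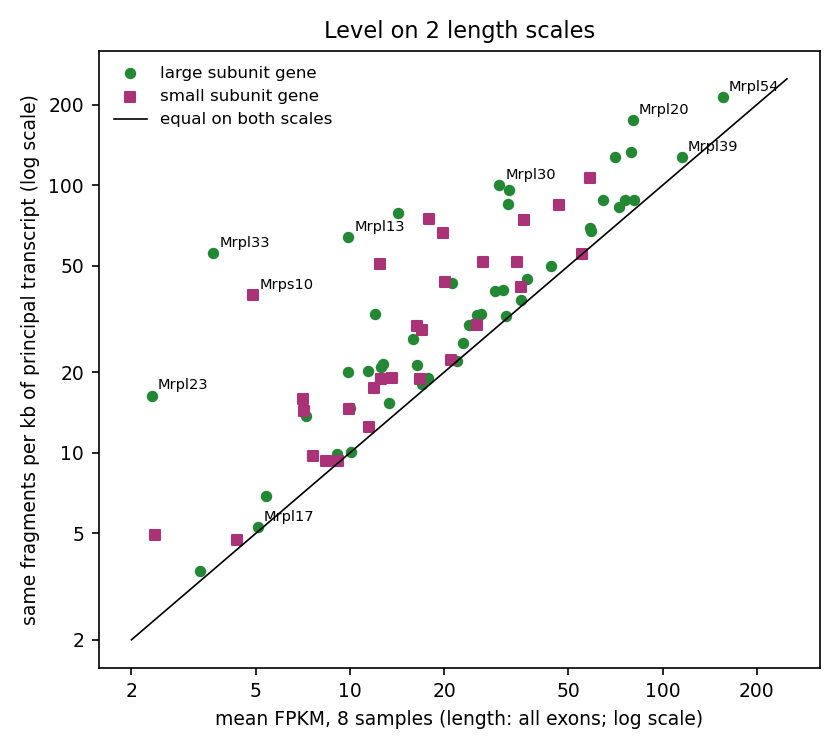
Mean level of the 77 tested members over 8 samples as FPKM (x, per kb of all exons) and with the same fragments divided by the principal transcript (y), both on log axes; circles are large and squares small subunit genes, and the line marks equal values. Mrpl33, Mrps10 and Mrpl23 lie far above the line, and Mrpl54 is highest on both axes.

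The changes of the members were weakly related to exon length (rho = -0.14 over 77 genes, -0.04 in the large and -0.18 in the small subunit) and more to level (rho = 0.44). Among all tested genes, changes were lower in longer genes: the 4310 other genes with exons of 808 to 1879 bp had a median change of 0.14 and 367 were called higher, and the 4325 other genes of 5784 bp or more had a median of -0.10 and 51 were called higher. The 27 members in the first of these ranges had a median of 0.16 with 3 called, and the 12 members in the second had a median of 0.09 with 0 called. In the middle range of 1880 to 3422 bp the 22 members had a median of 0.13 with 4 called, beside 0.05 for 4315 other genes with 205 called. By level, 7 of the 17 members in the highest of 5 bins of tested genes (36.84 FPKM or more) rose, with a median of 0.22; among the 4321 others in it 690 rose and the median was 0.11. In the 3 lowest bins 0 of 28 members were called. Among the other genes in these bins 17 of 4337, 40 of 4330 and 56 of 4318 were called higher, so rises were rarely called at such levels. With the length trend removed 6 of the 11 calls were kept (Mrpl1, Mrpl11, Mrpl20, Mrpl47, Mrpl51 and Mrps11) and the median over members was 0.12.

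**Figure D5:**
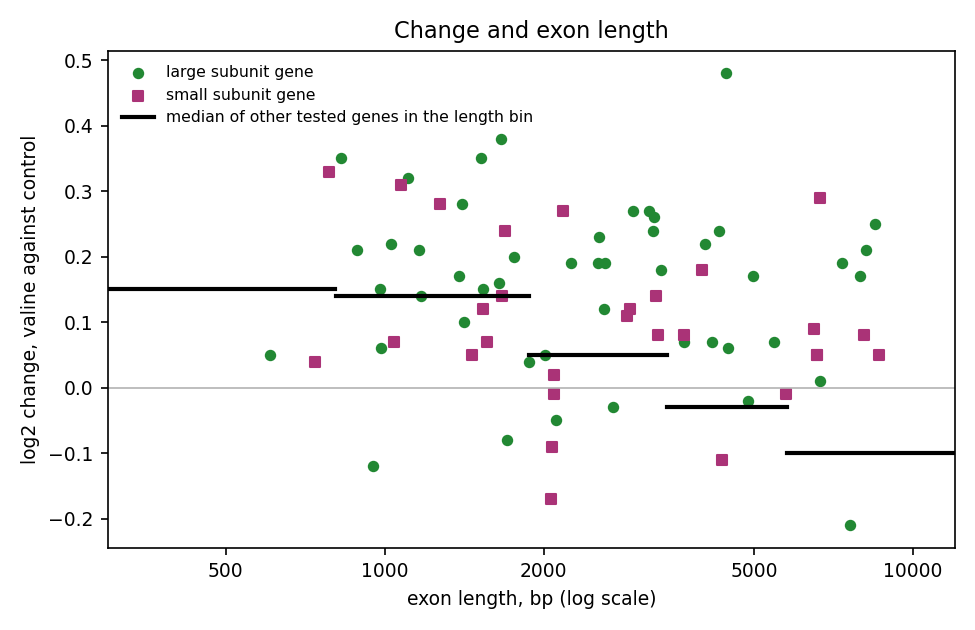
Log2 change against exon length (log axis) for the 77 tested members, circles for large and squares for small subunit genes; black bars are medians of the other tested genes in 5 bins of exon length, from 0.15 in the shortest to -0.10 in the longest. Members of 5784 bp or more lie mostly above the bar of their bin, with Mrpl17 the exception at -0.21.

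Promoters were read because members that change together may share upstream letters. RefSeq (GRCm38.p6) gave 75 start sites for 69 of the 78 members, each with a window of 300 bases around the start. On either strand, CCGGAAG, the core bound by ETS factors such as GABPA, stood in 34.7% of these windows and in 8.9% of 32851 windows of all genes. GCGCANGCG, the core bound by NRF1 (nuclear respiratory factor 1), stood in 21.3% against 6.2%, and AAGATGGC, bound by YY1, in 16.0% against 2.7%. CCAAT (NF-Y) stood in 40.0% against 37.4% and TGACGTCA (CREB) in 2.7% against 1.8%; none of these 5 runs contains another. Of the 8 risen members with a window, ETS letters were found in 2, NRF1 in 1, YY1 in 1, CCAAT in 3 and CREB in 0. A match is a run of letters and not a measured site. The windows of all genes were not limited to genes expressed here. Whether the members differ in these letters from other expressed genes was not tested.

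Shown here are 150 bases upstream of the start for 2 members that rose and hold no NRF1, ETS or YY1 letters in these bases (Mrpl20, at chr4:155802728-155802877, + strand, and Mrpl41, at chr2:24975099-24975248, - strand) and for 3 uncalled members that hold NRF1 or ETS letters. The latter are Mrpl45 (chr11:97315566-97315715, + strand), Mrpl52 (chr14:54426759-54426908, + strand) and Mrpl58 (chr11:115403602-115403751, + strand). All 5 windows touch no annotated exon and are written 5′ to 3′ on the gene's strand, with NRF1 or ETS letters in capitals and CCAAT left unmarked.
Mrpl20: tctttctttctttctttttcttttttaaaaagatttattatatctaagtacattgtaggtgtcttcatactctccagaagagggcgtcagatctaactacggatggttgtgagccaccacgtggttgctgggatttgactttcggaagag
Mrpl41: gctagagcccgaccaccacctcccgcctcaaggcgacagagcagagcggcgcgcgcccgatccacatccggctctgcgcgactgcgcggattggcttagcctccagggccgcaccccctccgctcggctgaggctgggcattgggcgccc
Mrpl45: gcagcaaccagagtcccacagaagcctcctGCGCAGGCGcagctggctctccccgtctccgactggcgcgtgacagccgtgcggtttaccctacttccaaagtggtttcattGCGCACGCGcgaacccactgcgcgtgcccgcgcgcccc
Mrpl52: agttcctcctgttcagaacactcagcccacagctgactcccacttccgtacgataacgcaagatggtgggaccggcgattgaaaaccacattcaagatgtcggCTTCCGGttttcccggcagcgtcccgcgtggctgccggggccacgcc
Mrpl58: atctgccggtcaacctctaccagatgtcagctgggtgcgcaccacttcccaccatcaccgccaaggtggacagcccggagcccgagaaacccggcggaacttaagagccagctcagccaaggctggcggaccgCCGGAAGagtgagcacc
Mrpl45 holds NRF1 letters starting 120 and 38 bases before the start. The ETS letters of Mrpl52 start 47 bases before it, read on the opposite strand, and those of Mrpl58 start 17 bases before it. The window of Mrpl20 opens with a run of c and t bases and has none of the NRF1, ETS or YY1 letters. The changes of the 5 genes were 0.38 for Mrpl20, 0.21 for Mrpl41, 0.12 for Mrpl45, 0.32 for Mrpl52 and 0.18 for Mrpl58, and since the genes were picked by call and letters, their order shows nothing about the letters.

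Many members start next to a gene read in the opposite direction. By the GENCODE annotation, 33 of the 77 tested members (42.9%) had an opposite-strand gene starting within 1000 bp of their own start. The share was 14.9% of 14440 other tested protein-coding genes. Partners on either side were counted, and at a distance below 0 the partner starts downstream of the member's start, so both genes overlap. This holds for Mrpl47 with Ndufb5 (-615 bp), Mrps11 with Mrpl46 (-412 bp) and Mrpl9 with Oaz3 (-597 bp). Ndufb5, a subunit of respiratory complex I, rose by 0.30 beside 0.48 for Mrpl47 (limma adjusted p = 0.0277 for Ndufb5). Ndufb5 is also one of the genes whose exons overlap those of Mrpl47, so the values of both may share fragments, and the same holds for Mrps11 with Mrpl46 and for Mrpl9 with Oaz3. Mrps11 faces the member Mrpl46, at 0.27 and 0.10. Mrpl51 faces Ncapd2, a condensin subunit, at 0.22 and -0.15 (adjusted p = 0.313), and Mrpl54 faces Apba3 at 0.35 and 0.00. In the reverse case, Mrpl49 (0.04) and Mrpl9 (-0.03) were not called while their partners rose, Fau by 0.33 and Oaz3 by 0.34 (limma adjusted p = 0.0314 and 0.0134). These 6 pairs were chosen after their values were seen.

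The genes that work with the mitochondrial ribosome were described as lists. Of 5 ribosome proteins that carry other names, 0 passed by limma or voom. At an unadjusted p below 0.05 limma put 2 of them higher and voom 1. Aurkaip1 averaged 57.6 ± 1.92 FPKM in control and 69.0 ± 5.97 FPKM in valine samples (0.25, limma adjusted p = 0.0524), and Chchd1 36.2 ± 1.90 and 41.0 ± 2.05 FPKM (0.17, limma adjusted p = 0.111). Neither gene overlapped between the groups. Of 19 tested translation factors 0 rose by limma or voom. At an unadjusted p below 0.05 limma put 3039 of all 22077 tested genes higher and 2612 lower. Of these factors, limma and voom each put 2 higher and 2 lower at that p. The 1 that fell (5.26%, beside 4.41% of all tested genes) was Taco1, a translational activator for cytochrome oxidase subunit I. It measured 8.57, 7.36, 8.67 and 7.80 FPKM in control and 6.10, 4.96, 5.80 and 5.58 FPKM in valine samples, a change of -0.46 ± 0.089 (limma adjusted p = 0.0184). All valine samples were below all controls.

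Of 26 tested genes of ribosome assembly and ribosomal RNA modification, 0 rose by limma or voom. At an unadjusted p below 0.05 limma put 3 of them higher and 3 lower, and voom 2 higher and 4 lower. The 1 that fell (3.85%, beside 4.41% of all tested genes) was Dhx30, an RNA helicase of mitochondrial RNA granules. It measured 73.4, 63.2, 71.3 and 66.9 FPKM in control and 53.6, 48.0, 51.2 and 54.9 FPKM in valine samples (-0.40 ± 0.065, limma adjusted p = 0.011). With the length trend removed its change was -0.26 with an adjusted p of 0.0593. A change above 0 was found in 10 of the 19 factors and 13 of the 26 assembly genes (4 and 8 with equal totals). Among all 22077 tested genes it was found in 11835 (8231 with equal totals). These lists had median exon lengths of 3984 and 3322.5 bp and median levels of 6.855 and 7.55 FPKM, longer and lower than the ribosomal proteins, and were not tested against them.

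Upstream of these, Tfam, which packages the mitochondrial genome and helps to start its transcription, rose from 80.7 ± 1.52 to 108 ± 12.9 FPKM (0.41, limma adjusted p = 0.0181). It was the only call among 11 genes of mitochondrial transcription and genome copying. Among 17 genes of import and quality control Tomm22, the central receptor of the outer membrane translocase, rose by 0.38 (adjusted p = 0.0112; 0.22 and 0.112 after quantile normalisation). In the same list Hspd1, the matrix chaperonin, fell by 0.42 (adjusted p = 0.036). Of 8 tested regulators of nuclear genes for mitochondria Tfam, which both lists hold, was again the only call.

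The RNA partners of the members did not pass the test. The small ribosomal RNA mt-Rnr1 measured 465, 358, 399 and 445 FPKM in control and 292, 519, 519 and 310 FPKM in valine samples, and the large ribosomal RNA mt-Rnr2 measured 329, 293, 251 and 299 FPKM and 215, 299, 283 and 200 FPKM. In both, valine replicates 1 and 4 were the lowest of the 8 samples and valine replicates 2 and 3 lay near or above the controls. These 2 samples with the lowest ribosomal RNA had the highest summed FPKM of the members, 2405 and 2468, against 2240 and 2278 in valine replicates 2 and 3 and 1995 to 2137 in control samples. Changes were -0.07 ± 0.206 and -0.25 ± 0.142. Both ribosomal RNAs lay far below the messenger RNA mt-Co1, at 7984 FPKM in control samples. How much ribosomal RNA the libraries kept was not examined, so these FPKM may not follow its level in tissue. Whether the level of ribosomal RNA bears on the members' values was not tested. Of 13 messenger RNAs of the mitochondrial genome 0 passed (4 higher and 0 lower at an unadjusted p below 0.05); voom could use 5 of them and called 0. This balance turned with scaling: at the same p, 0 were higher and 3 lower with equal totals, 0 and 6 after quantile normalisation (median -0.18) and 0 and 2 with the length trend removed. The smallest p belonged to mt-Co2, at 5582 ± 351 FPKM in control and 6368 ± 205 FPKM in valine samples (0.19, adjusted p = 0.0611; -0.01 after quantile normalisation), and mt-Co1, at 7984 ± 425 and 8750 ± 239 FPKM (0.13, adjusted p = 0.121).

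For scale, 30 of 86 cytosolic ribosomal protein genes rose and 1 fell, with a median change of 0.22 (0.12 with equal totals). The number that rose was 15 with equal totals, 12 after quantile normalisation and 14 with the length trend removed. Of 83 tested nuclear genes of the respiratory chain 22 rose and 0 fell, with a median of 0.21 (0.09 with equal totals). At an unadjusted p below 0.05 limma put 4 of them lower and voom 2, and voom called 0 lower. In this list 10 rose and 3 fell with equal totals, 12 rose and 3 fell after quantile normalisation, and 12 rose and 0 fell with the length trend removed. Their median exon lengths were 1736.5 and 1550 bp and their median levels 118 and 69.6 FPKM, shorter and higher than the 2533 bp and 17.9 FPKM of the mitochondrial ribosomal proteins.

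The samples carried the markers of testis: summed markers of spermatocytes were 741 to 830 FPKM in control and 787 to 859 FPKM in valine samples. Markers of other cells moved with the groups. All 6 Leydig cell markers fell (median -2.09), and their summed level was 1576 to 2236 FPKM in control and 460 to 750 FPKM in valine samples. Of 5 macrophage markers 3 fell, of 3 stroma markers 2, and of the endothelial markers both that were tested. Acta2 fell among 3 myoid markers (-0.93) and Tssk2 among 5 markers of round spermatids (-0.57). Kit and Zbtb16 fell among 5 markers of spermatogonia (-0.95 and -0.89). A change above 0 was seen in 0 of the myoid, 3 of the round spermatid and 2 of the spermatogonia markers (Dazl at 0.22 and Gfra1 at 0.23). In contrast, 5 of 6 markers of elongating spermatids rose, with a median of 0.45 and summed levels of 39130 to 41660 and 50480 to 62150 FPKM. None of the elongating spermatid markers was called after quantile normalisation. That method gives every sample the same set of values, so it cannot show a shared rise of the most abundant genes, which include several of these markers. Of the 7 Sertoli cell markers none was called (1 higher and 1 lower at an unadjusted p below 0.05), with summed levels of 662 to 743 and 637 to 689 FPKM. Control replicate 1 stood apart in some fat and stroma genes: Cfd measured 29.8 FPKM there against 0.325 to 1.77 FPKM in the other controls, Car3 14.6 against 0.261 to 1.65 FPKM, and Col1a1 12.1 against 4.75 to 5.14 FPKM. Without that sample 3 members were called higher (Mrpl20, Mrpl38 and Mrpl47). The part of these cell types in the changes of the mitochondrial ribosomal proteins was not tested.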

How the data were processed

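Total RNA of mouse testis (4 control and 4 valine samples) was made into TruSeq libraries, per the labels' protocols. The deposited table holds FPKM values that the authors computed per Ensembl gene. Reads were aligned with HISAT2 to GRCm39, per the submitters' processing notes; the sources used here do not give the versions, quantifier, strand setting or annotation. Symbols, gene types and lengths came from GENCODE vM21 (GRCm38), which named 52133 genes. FPKM multiplied by this union exon length and by depth gave whole fragments (within 0.05) for 99.8% to 99.9% of pseudogene values of 150 to 1500 bp, so the authors' lengths can be taken as these unions, and all 78 members gave whole numbers in every sample. Depth covers counting error only.

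Genes averaging 1 FPKM or more were fitted on log2(FPKM + 1) by limma 3.58.1 in R 4.3.3 with treatment alone in the model. Variances were moderated along a mean-variance trend, and two-sided p-values were adjusted by Benjamini-Hochberg over all genes fitted. The script was tested on simulated data. Members and lists were chosen with earlier results of these data known. The members named were those past the threshold, the 4 largest and 4 lowest changes among the rest, the 4 highest and 4 lowest levels of each subunit, and the stalk, S18 and a few other proteins; of each list, the calls or the 2 smallest p-values. Alternatives were a pseudocount of 0.1, no filter or one of 5 FPKM, equal totals, quantile normalisation, no trend, the replicate number as a block, a loess of span 0.3 on exon length removed, each sample left out, and, added after seeing the data, voom on recovered fragments. Mtrfr of the translation factors was not matched and is not analysed here. No protein sequences were used here.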

Additional observations from a re-analysis of the deposited data

Results flagged for a closer look

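Among 94 groups of 4 samples examined for a single value far from the other 3, 3 were flagged, and chance alone flags about 1 in 20. Mrpl12 was flagged in both groups: control replicate 4 measured 74.2 FPKM, a little above 3 nearly equal controls, and valine replicate 2 measured 56.5 FPKM, far below the other valine samples. Mrps35 was flagged in control replicate 1, at 1.72 FPKM against 2.48 to 2.55 FPKM in the other controls. No cause of these values was tested.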

How the results depend on the processing

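Against 11 members called higher, 4 were called with no expression filter, 2 with equal totals, 3 with quantile normalisation, 3 with no mean-variance trend and 6 with the length trend removed, and 1 to 6 with 1 sample left out (fewest without valine replicate 4). The replicate number as a block gave 2 (Mrpl20 and Mrps28); same-numbered samples deviated together with r of -0.017, -0.04, 0.104 and 0.111, so the numbers were not taken as pairs, and the block gave 581 genes higher and 489 lower. No member was called lower in any of the 17 settings. Over all genes, 954 were higher and 974 lower: 363 and 2022 with equal totals, 398 and 1029 with quantile normalisation, 568 higher with no expression filter, 503 higher with no trend, 648 lower with the length trend removed, and 381 to 795 higher and 461 to 802 lower with 1 sample left out. With equal totals the members' median was 0.03, the large subunit's 0.07 and the small subunit's -0.03, and with the length trend removed the large subunit's was 0.13; with 1 sample left out these medians were 0.11 to 0.16, 0.15 to 0.21 and 0.07 to 0.10. Members exceeded the median of all genes by 0.12 in the main setting and by 0.11 with equal totals. Translation and assembly genes higher were 0, and 1 with a mean of at least 5 FPKM; those lower were 2, and 5 with equal totals, 1 with the length trend removed and 1 to 3 with 1 sample left out. With equal totals each value is divided by its sample's total FPKM, which was higher in every valine sample than in every control sample. Valine values are thereby lowered relative to control values. The cause of the other differences was not tested. The 11 called changes stayed between 0.09 and 0.56 in all settings, with 78 of 187 values past the threshold. At 69 fragments, as for Mrpl14, counting error limits what can be seen.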
